A study of Mus musculus with 6 samples.

Results

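The genes described here are 10 matricellular and adaptor proteins of the matrix, of 26130 genes in the table: the tenascins Tnc, Tnn and Tnxb, the thrombospondins Thbs1, Thbs2, Thbs3, Thbs4 and Comp, and periostin (Postn) and Sparc. They were chosen by gene symbol, and all 10 were found in the table of counts. The RNA came from mouse skeletal stem cells (mSSCs) of C57BL/6 mice, sorted from digested Achilles tendon-to-bone interfaces at day 7. The enthesis is the graded, partly fibrocartilaginous tissue that anchors tendon in bone. There were 3 injured libraries, made after a partial injury of the interface, 2 sham control libraries and 1 uninjured library. The title and treatment label of the 1 uninjured library call it uninjured, while its description and its column name call it a sham. For this reason the comparison with sham control treated it as separate from both other groups. A group of 1 library has no spread within it, so the residual spread came from the sham control and injured libraries. In the comparison with all non-injured libraries the uninjured library was joined to sham control, so that the 2 comparisons share their libraries. The labels do not say how many animals gave each library or whether animals were pooled, so the p-values measure only the spread between these libraries, which may be technical. No genetic change is named in the labels, and neither the age and sex of the mice nor the markers used for the sort were found in them.

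Matricellular proteins are secreted into the matrix but act mainly by binding cells, growth factors and collagen rather than by bearing load themselves. Tenascins are large oligomeric glycoproteins. Tenascin-C and tenascin-W (Tnn) appear in development, in wounds and in the stroma of bone and tumours, whereas tenascin-X (Tnxb) belongs to mature loose connective tissue, where it spaces and stabilises collagen fibrils, and its loss in humans gives a form of Ehlers-Danlos syndrome. Thrombospondins are calcium-binding multimers. Thbs1 and Thbs2 form trimers that inhibit angiogenesis, and Thbs1 can activate latent TGF-beta. Thbs3, Thbs4 and Comp form pentamers and are prominent in tendon and cartilage. Periostin links collagen I, fibronectin and tenascin-C and promotes collagen crosslinking through the protease BMP1 and lysyl oxidase. SPARC (osteonectin) binds collagen and calcium and is needed for orderly fibril assembly.

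The totals ran from 37506188 to 51089267 counts a library, and the lowest count of any of the 10 genes in a library was 1315. Levels are given as CPM, counts per 1e+06 counts after scaling by the trimmed mean of M-values (TMM). Sham control 1 and injured 1 stood apart from the rest of their groups. Ribosomal RNA took 15.05% of counts in sham control 1 and 14.7% in injured 1 against 2.89% to 5.32% elsewhere. The 12 macrophage markers summed to 2977 CPM in sham control 1, 4916 in injured 1, 1231 in injured 2 and 38.8 to 184 in the remaining libraries. The 8 erythroid markers found in the table summed to 49932 CPM in sham control 1 and 8058 in injured 1, and to between 2.10 and 765 CPM elsewhere. Endothelial markers summed to 3266 CPM in sham control 1, 1032 in the uninjured library and 12.7 in sham control 2, where 9 of the 12 had no count, against 102 to 645 CPM in the injured libraries. Of the genes for surface proteins usual in sorting these cells, Itgav stood between 31.1 and 116 CPM and Cd200 between 31.0 and 160.2 CPM. Genes of proteins usually selected against were uneven. The leukocyte gene Ptprc reached 24.8 CPM in injured 1 and had no count in sham control 2 or injured 3. Eng stood at 201, 0 and 25.5 CPM in sham control 1, sham control 2 and the uninjured library against 66.1, 26.1 and 5.46 CPM in injured 1, 2 and 3. Tek stood at 58.1, 0.580 and 61.7 CPM against 9.28, 4.66 and 9.16 CPM. Thy1 reached 14.3 CPM and Enpep 16.1 CPM, the highest values being in injured 1 and sham control 1. In these bulk samples fewer cells of a type and less RNA per cell cannot be told apart.

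**Figure D1:**
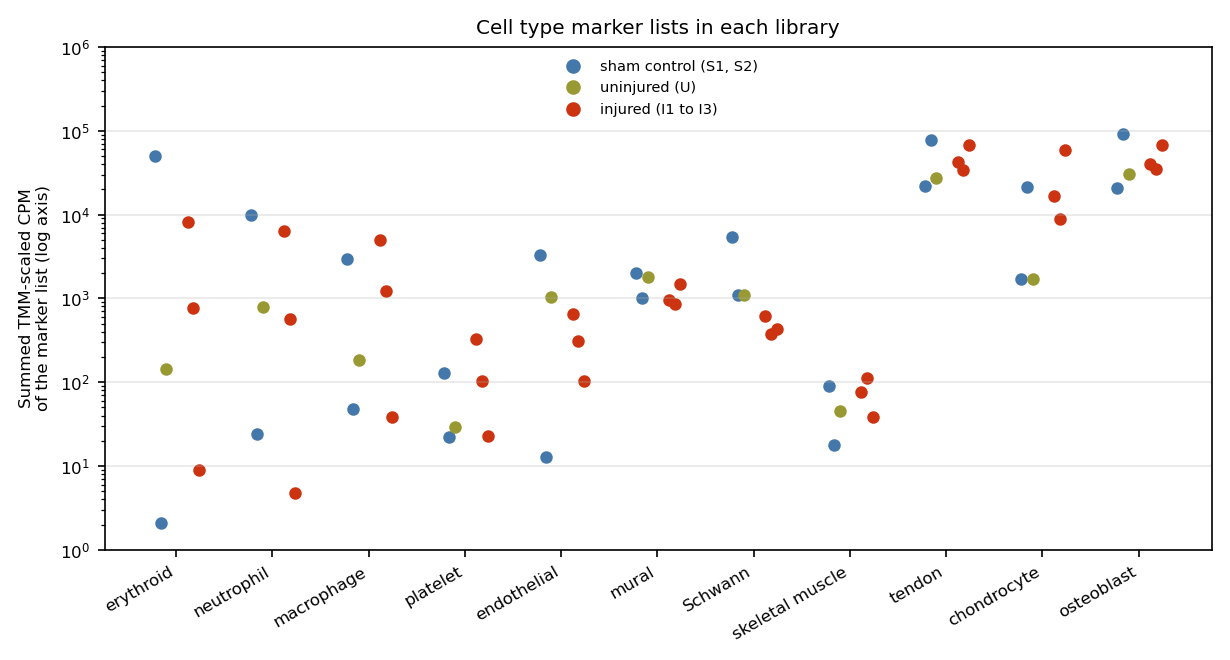
Summed TMM-scaled CPM (log axis) of 11 cell type marker lists in each library; blue points are sham control, olive the uninjured library and red the injured libraries. Blood and endothelial lists spread widely within groups (erythroid 2.10 to 49932 CPM), while the Schwann cell list lies lower in all 3 injured libraries than in the 3 others.

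The first comparison asked how these genes differ between mSSCs of the injured interface and those of sham-operated animals. Tenascin-C and tenascin-W stood higher and tenascin-X lower in every injured library than in either sham control library, on average 2.97-fold and 5.59-fold higher and 9.52-fold lower. Periostin stood on average 2.08-fold higher and Comp 2.20-fold lower, both with overlapping groups. These 2 genes, Thbs1 to Thbs4 and Sparc all differed by less than 2 SE. By edgeR's quasi-likelihood test 0 of the 10 genes passed an adjusted p of 0.05, as did 0.00% of the 16752 genes tested (smallest adjusted p = 0.103). At an unadjusted p under 0.05, 1 of the 10 genes was higher (Tnc) and 1 lower (Tnxb), against 2.44% and 2.20% of all genes. In either direction that was 2 of 10 genes beside 4.64% of all genes. DESeq2 called 1 of the 10, Tnxb, against 2.20% of all genes (1.43% higher and 0.770% lower). For 2 members, Tnc and Tnn, the lowest injured value exceeded the highest sham control value, as for 11.9% of all genes, and for 1, Tnxb, the highest injured value was under the lowest sham control value, as for 9.12% of all genes. Together these were 3 of 10 beside 21.0% of all genes. The median log2 fold change was 0.37 over the 10 genes and 0.09 over all genes.

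The second comparison, with the uninjured library joined to the sham control libraries, set 3 libraries against 3. By edgeR 0 of the 10 genes passed, with 0.00% of 14110 genes tested (smallest adjusted p = 0.183). At an unadjusted p under 0.05, 2 members were higher (Tnc and Tnn; 3.71% of all genes) and 1 lower (Tnxb; 3.72% of all genes), together 3 of 10 beside 7.43%. DESeq2 called the same 3 genes, 2 higher (0.992% of all genes) and 1 lower (1.45% of all genes), together 3 of 10 beside 2.45%. The groups did not overlap for 2 higher members, again Tnc and Tnn (9.19% of all genes), and 1 lower, Tnxb (7.13% of all genes), together 3 of 10 beside 16.3%. The median log2 fold change was 0.39 over the 10 genes and 0.00 over all genes. Of the 10 genes, 7 had a log2 fold change above 0 and 3 below 0 in each comparison. Over all genes 53.7% lay above 0 against sham control and 50.1% against all non-injured libraries.

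**Figure D2:**
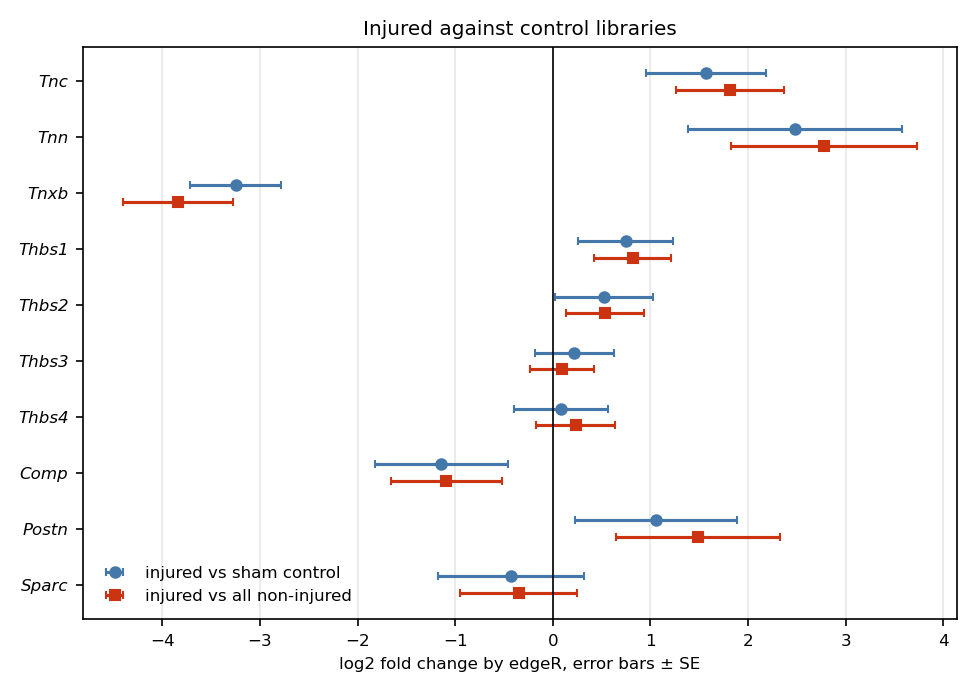
Log2 fold change by edgeR (x axis; error bars are ± SE) of each of the 10 genes in injured against sham control (blue circles) and injured against all non-injured libraries (red squares). Tnxb lies farthest from 0, at -3.25 and -3.84, and Tnc and Tnn lie above 0 by more than 2 SE in both comparisons.

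Tenascin-C, an adhesion-modulating hexamer of wounds and developing tendon, stood at 134 and 393 CPM in sham control 1 and 2 and at 136 CPM in the uninjured library. In injured 1, 2 and 3 it stood at 940.5, 478 and 925 CPM. All 3 injured libraries were above all others, and the gap between the nearest pair, injured 2 and sham control 2, was 1.217-fold. The log2 fold change was 1.57 ± 0.62 (SE; edgeR unadjusted p = 0.0389, adjusted p = 0.865) against sham control and 1.82 ± 0.55 (SE; unadjusted p = 0.0124, adjusted p = 0.467) against all non-injured libraries. DESeq2's adjusted p was 0.246 and 0.0413 in the 2 comparisons. Against sham control the log2 fold change was 0.99 (unadjusted p = 0.168) without sham control 1, 2.55 (unadjusted p = 0.0122) without sham control 2, and 0.84 (unadjusted p = 0.218) without sham control 1 and injured 1. Its annotated overlap is an opposite-strand transcript, 8030451A03Rik, which had no count in 4 libraries and at most 0.492 CPM. Chondrocyte markers were highest among the non-injured libraries in sham control 2, at 21187 CPM against 1686 and 1691 CPM. That library was also the highest of the non-injured ones in all of the 10 genes but Tnxb and Thbs3. In injured 1, 2 and 3 chondrocyte markers stood at 16486, 8848 and 58275 CPM. Of the 16 markers, 13 had a log2 fold change above 0 against sham control (median 2.04), beside 53.7% of all genes. DESeq2 called 4 higher, beside 1.43% of all genes, and 6 lay higher without overlap between the groups, beside 11.9%. Against all non-injured libraries 14 were above 0 (median 2.40), beside 50.1% of all genes, and DESeq2 called 3 higher, beside 0.992%. Tendon cell markers summed to 21839, 77176 and 26991 CPM in sham control 1, sham control 2 and the uninjured library. In injured 1, 2 and 3 they summed to 42532, 33873 and 67208 CPM. Osteoblast markers, in the same order, summed to 20795, 91072 and 30491 CPM and to 40449, 34602 and 68106 CPM. Both lists were thus also highest of the non-injured libraries in sham control 2. Both hold Col1a1, and the tendon cell list holds Thbs4. The part of chondrocytes, tendon cells and osteoblasts in these results was not tested.

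Tenascin-W, the Tnn product, is a tenascin of bone and periosteum. It stood at 36.2 and 427 CPM in the sham control libraries, 100.03 CPM in the uninjured library and 1105, 581 and 2193 CPM, in turn, after injury. The injured libraries were again all above the others, although sham control 2 held 11.8 times the level of sham control 1, a wider spread within a group than that of any other of the 10 genes. The log2 fold change was 2.48 ± 1.10 (SE; edgeR unadjusted p = 0.0594, adjusted p = 0.865) against sham control and 2.78 ± 0.96 (SE; unadjusted p = 0.0219, adjusted p = 0.552) against all non-injured libraries. DESeq2's adjusted p was 0.219 and 0.0335. Without sham control 2 the log2 fold change against sham control was 5.16, and without sham control 1 it was 1.60. Each of these rested on 1 sham control library. Without injured 3 the log2 fold change was 1.86 (edgeR unadjusted p = 0.129).

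Tenascin-X stood at 254 and 405 CPM in the sham control libraries and at 825 CPM in the uninjured library. In injured 1, 2 and 3 it stood at 49.7, 26.01 and 28.2 CPM. The groups were far apart: the lowest of the non-injured libraries held 5.11 times the level of the highest injured library. The log2 fold change was -3.25 ± 0.47 (SE; edgeR unadjusted p = 0.000239, adjusted p = 0.525) against sham control, the 7th smallest p of all genes tested. Against all non-injured libraries it was -3.84 ± 0.56 (SE; unadjusted p = 0.000209, adjusted p = 0.211). DESeq2's adjusted p was 2.24e-08 and 1.59e-10. With sham control 1 and injured 1, the libraries rich in blood and ribosomal RNA, both left out, the log2 fold change against sham control was -3.90. Cyp21a2-ps, a pseudogene on the opposite strand, overlaps Tnxb and has no row of its own, and no label says whether reads were counted by strand. Schwann cell markers moved the same way as Tnxb: the 11 genes summed to 5416, 1098 and 1105 CPM in sham control 1, sham control 2 and the uninjured library and to 624, 371 and 433 CPM in injured 1, 2 and 3. DESeq2 called 5 of the 11 lower against sham control, beside 0.770% of all genes. Against all non-injured libraries it called 2 lower, beside 1.45% of all genes. At most 3 of the 11 had no count in a library, and their part in the Tnxb result was not tested. Among the sham control libraries the order differed, with the library richer in Schwann cell markers holding the lower Tnxb level. The fourth tenascin, Tnr of the nervous system, had 20 counts in injured 3 and none elsewhere.

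**Figure D3:**
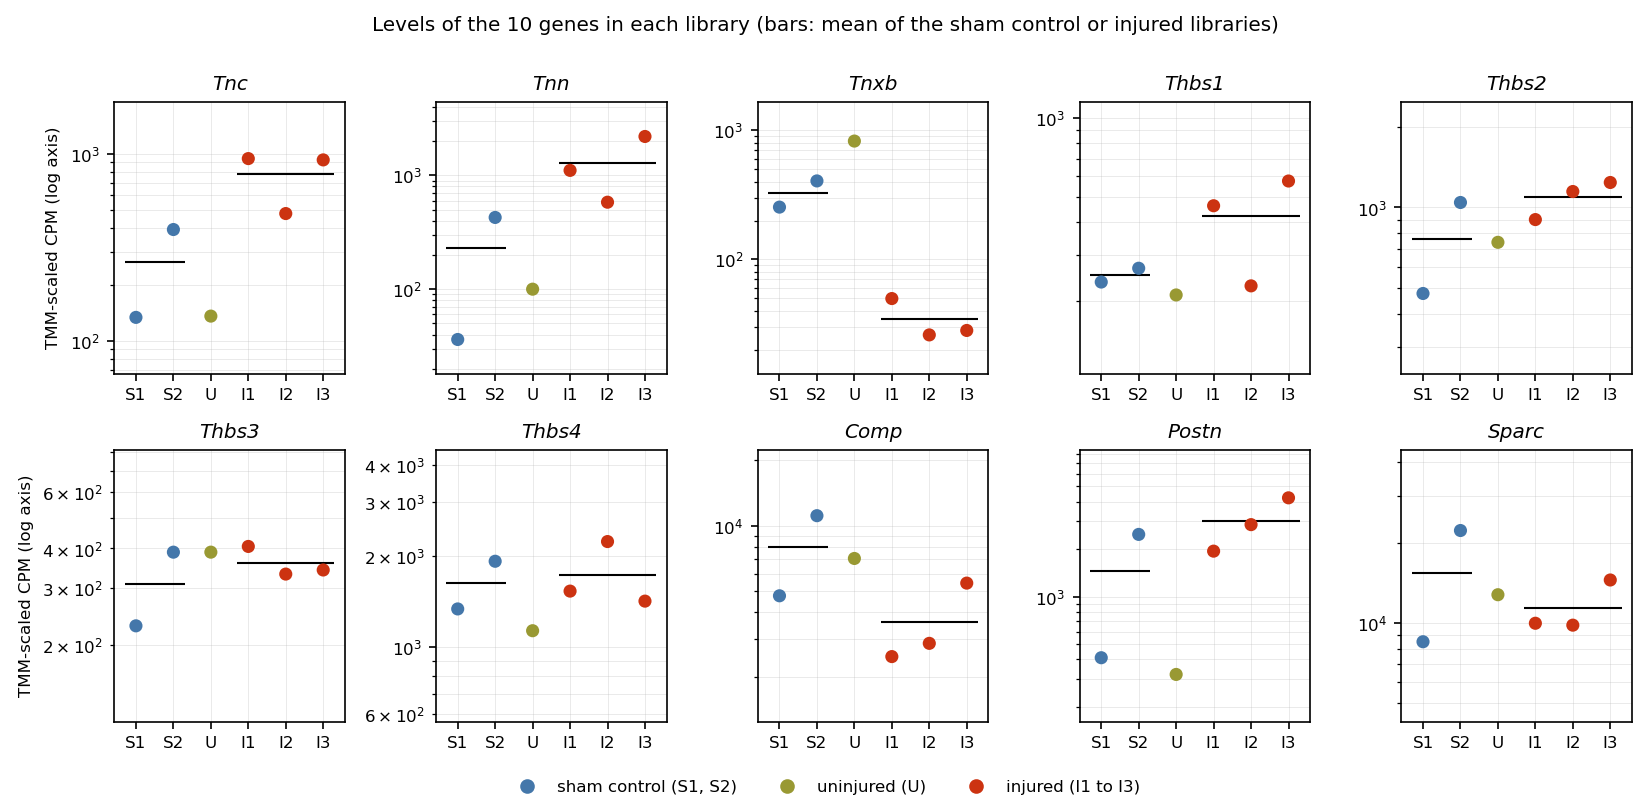
TMM-scaled CPM (log axis, a separate range in each panel) of the 10 genes in sham control 1 and 2 (S1, S2), the uninjured library (U) and injured 1 to 3 (I1 to I3); black bars are means of the sham control and of the injured libraries. Only in the Tnc, Tnn and Tnxb panels do the 3 injured points lie wholly on one side of the 3 others.

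Because Tnc and Tnxb were read in the same library, their ratio does not depend on the scaling between libraries. The log2 ratio of Tnc to Tnxb counts was -0.93, -0.04 and -2.61 in sham control 1, sham control 2 and the uninjured library, so Tnxb had the more counts in each. In injured 1, 2 and 3 it was 4.24, 4.201 and 5.04. The mean was 4.49 ± 0.47 (SD, n = 3) in injured and -1.19 ± 1.30 (SD, n = 3) in non-injured libraries, a difference of 5.69 log2 units. Since Tnc stood higher and Tnxb lower in every injured library, the ratio had to separate the groups. It restates those levels, and no test of it is given. The ratio was read as counts and not per length, and a longer transcript yields more fragments.

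**Figure D4:**
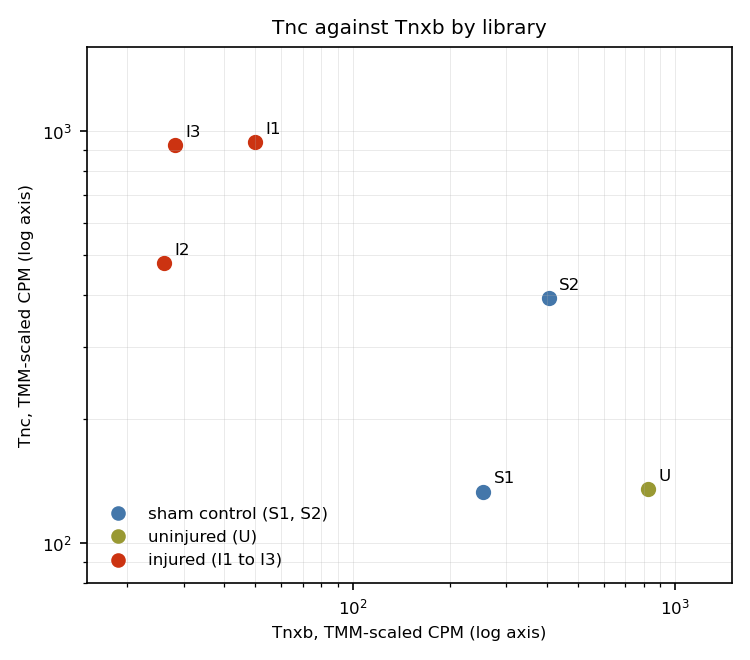
Tnc against Tnxb in TMM-scaled CPM (both axes log) with 1 point a library, labelled as S1 and S2 (sham control), U (uninjured) and I1 to I3 (injured). The injured points lie at the upper left, between 26.01 and 49.7 CPM of Tnxb, and the non-injured points at the right, between 254 and 825 CPM.

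The windows upstream of the 3 tenascin genes and of Postn are shown, since a reader may want to compare the start regions. Tnc, Tnn and Postn had higher and Tnxb lower mean levels in injured cells. Other members with a window are not shown, among them Thbs2 (mean 1.44-fold higher than in sham control) and Sparc (1.34-fold lower). RefSeq's table on build GRCm38.p6 held windows for 8 of the 10 genes and none for Thbs1 and Comp. Each window is the 250 bases before an annotated start, on the gene's strand, and capitals mark matches on either strand to the TATA box TATAAA, the E-box CANNTG, the AP-1 site TGANTCA and the Sp1 box GGGCGG. The Tnc window is chr4:64046937-64047186 on the minus strand, at the more downstream of its 2 listed starts. The Tnn window is chr1:160153576-160153825 on the minus strand. The Tnxb window is chr17:34670285-34670534 on the plus strand. The Postn window is chr3:54360857-54361106 on the plus strand, at the more downstream of its 2 listed starts.
Tnc: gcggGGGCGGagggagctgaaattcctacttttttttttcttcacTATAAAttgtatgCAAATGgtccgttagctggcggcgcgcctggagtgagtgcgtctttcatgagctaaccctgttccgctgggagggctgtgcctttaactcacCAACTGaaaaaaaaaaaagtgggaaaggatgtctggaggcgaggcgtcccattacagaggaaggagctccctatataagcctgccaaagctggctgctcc
Tnn: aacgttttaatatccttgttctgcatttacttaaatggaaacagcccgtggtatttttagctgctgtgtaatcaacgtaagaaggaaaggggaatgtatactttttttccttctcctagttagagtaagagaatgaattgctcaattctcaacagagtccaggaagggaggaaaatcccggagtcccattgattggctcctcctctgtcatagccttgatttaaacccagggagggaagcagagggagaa
Tnxb: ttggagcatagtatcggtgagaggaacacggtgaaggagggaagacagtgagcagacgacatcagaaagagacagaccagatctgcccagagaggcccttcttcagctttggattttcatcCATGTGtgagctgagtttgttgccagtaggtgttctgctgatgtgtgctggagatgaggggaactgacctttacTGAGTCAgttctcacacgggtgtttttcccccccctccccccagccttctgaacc
Postn: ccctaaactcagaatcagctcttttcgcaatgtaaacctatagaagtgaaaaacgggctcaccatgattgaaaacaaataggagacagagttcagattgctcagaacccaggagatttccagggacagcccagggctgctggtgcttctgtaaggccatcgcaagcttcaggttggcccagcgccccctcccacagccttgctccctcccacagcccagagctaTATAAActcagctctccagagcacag
The Tnc window held a TATAAA match beginning 205 bases before the start, a GGGCGG match and CANNTG matches. The Postn window held a TATAAA match beginning 26 bases before the start. The Tnxb window held a TGANTCA match beginning 55 bases before the start and a CANNTG match. The Tnn window held none of these 4. The TEAD motif GGAATG was in the Tnn window alone of these 4 windows, and the Smad motif CAGAC was in the Tnc and Tnxb windows. These matches depend on the start chosen. At its other listed start Tnc had no CAGAC match, and Postn had a CAGAC match and no TATAAA match. Over all 32851 windows of this length in the table, 12.4% held TATAAA, 66.2% CANNTG, 6.75% TGANTCA, 32.7% GGGCGG, 12.6% GGAATG and 42.2% CAGAC. None of these motifs was in each of the Tnc, Tnn and Postn windows, and the windows of the other members were not compared.

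Of the trimeric thrombospondins, Thbs1, an angiogenesis inhibitor and activator of latent TGF-beta, stood at 236, 267 and 211 CPM in sham control 1, sham control 2 and the uninjured library. In injured 1, 2 and 3 it stood at 462, 228 and 574 CPM. Injured 1 and 3 were above all non-injured libraries and injured 2 lay among them, so the groups overlapped. The log2 fold change was 0.75 ± 0.49 (SE; edgeR unadjusted p = 0.171) against sham control and 0.82 ± 0.40 (SE; unadjusted p = 0.0762) against all non-injured libraries. Without injured 3 these were 0.43 and 0.50. Thbs1 is also a platelet and macrophage product. The 9 platelet markers summed to 129, 22.3 and 29.1 CPM in the 3 non-injured and 325, 102 and 22.5 CPM in the 3 injured libraries. Macrophage markers had their lowest sum of all 6 libraries in injured 3 (38.8 CPM), where Thbs1 was highest. They had their highest sum in injured 1 (4916 CPM), where Thbs1 was next highest. The part of these cells in the Thbs1 levels was not tested. Thbs2, a trimer that also limits vessel growth and clears metalloproteases, stood at 476, 1044 and 740.1 CPM against 901, 1148 and 1241 CPM in the injured libraries. Sham control 2 lay above injured 1, and the log2 fold change was 0.53 ± 0.50 (SE; edgeR unadjusted p = 0.327). It was 0.07 without sham control 1 and 1.21 without sham control 2.

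The pentameric thrombospondins did not move as a group. Thbs4, a tendon and muscle thrombospondin, stood at 1335, 1918 and 1131 CPM in sham control 1, sham control 2 and the uninjured library, as against 1529, 2228 and 1417 CPM in injured 1, 2 and 3. The groups overlapped, and the log2 fold change was 0.08 ± 0.48 (SE; edgeR unadjusted p = 0.866) against sham control. Thbs3, a skeletal thrombospondin, ranged only from 229 to 406 CPM over the 6 libraries, a 1.77-fold range and the narrowest of the 10 genes, and its log2 fold change was 0.22 ± 0.40 (SE; edgeR unadjusted p = 0.602). It overlaps Mtx1 on the opposite strand, which stood at 18.2 to 72.6 CPM.

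Comp, cartilage oligomeric matrix protein, bridges collagen fibrils in tendon and cartilage and ranked first of the thrombospondins per kilobase of transcript in all 6 libraries. It stood at 4756, 11127 and 7067 CPM in sham control 1, sham control 2 and the uninjured library, as against 2495, 2872 and 5441 CPM in injured 1, 2 and 3. Injured 1 and 2 lay below all non-injured libraries, whereas injured 3 lay above sham control 1. The log2 fold change was -1.14 ± 0.68 (SE; edgeR unadjusted p = 0.139) against sham control and -1.09 ± 0.57 (SE; unadjusted p = 0.0937) against all non-injured libraries. Without sham control 2 the first of these was -0.40. The summed levels of the 16 chondrocyte markers, given above for each library, overlapped between the groups, and the median of the list lay above 0 where Comp lay below 0. Sham control 2 and injured 3, the libraries highest in these markers within their groups, were also the highest in Comp within their groups. Tendon cell and osteoblast markers were highest in the same libraries within their groups. The part of these cell types in the Comp result was not tested.

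Periostin, a collagen-binding protein of periosteum, ligament and healing tissue, stood at 409, 2478 and 321 CPM in sham control 1, sham control 2 and the uninjured library. In injured 1, 2 and 3 it stood at 1941, 2858 and 4227 CPM. Sham control 2 lay between injured 1 and injured 2, and the other 2 non-injured libraries lay well below all injured ones. The log2 fold change was 1.06 ± 0.83 (SE; edgeR unadjusted p = 0.242) against sham control and 1.49 ± 0.84 (SE; unadjusted p = 0.119) against all non-injured libraries. The size against sham control rested on which sham control library was used: without sham control 2 it was 2.88, and without sham control 1 it was 0.28. Sparc stood at 8489, 22208 and 12749 CPM in the non-injured and 9961, 9798 and 14480.1 CPM in the injured libraries. The injured values lay wholly within the range of the others, and the log2 fold change was -0.43 ± 0.74 (SE; edgeR unadjusted p = 0.584).

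Levels of different genes were compared per kilobase of the longest coding transcript in GENCODE M21, since longer transcripts give more fragments. In the non-injured libraries Sparc stood at 10602 ± 5140.4 CPM per kb and Comp at 3166 ± 1335 (SD, n = 3), followed by Thbs4 (457 ± 128) and Postn (401 ± 457), which did not differ beyond their spread. Thbs2 (128 ± 48.2) and Thbs3 (105 ± 29.1) came next, and Thbs1 (40.7 ± 4.78), Tnxb (40.5 ± 24.2), Tnn (32.2 ± 36.0) and Tnc (31.1 ± 21.01) lay within their spread of each other. In the injured libraries Sparc stood at 8355 ± 1945, Comp at 1491 ± 664 and Postn at 1127 ± 431 CPM per kb (SD, n = 3). The last pair lay within their spread, although Comp ranked above Postn in each injured library. Thbs4 (539 ± 137) came next and did not overlap Tnn (222 ± 141) below it. Tnn overlapped Thbs2 (186 ± 29.8), whose lowest value lay above the highest of Thbs3 (113 ± 12.5), and Thbs3, Tnc (110.0 ± 36.9) and Thbs1 (72.1 ± 30.2) overlapped in turn. Within each injured library Thbs1 ranked below both Thbs3 and Tnc. Tnxb was last in all 3 injured libraries, at 2.84 ± 1.08 CPM per kb.

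The composition of the set within each library gave a view that does not rest on scaling between libraries. Sparc made up 69.1% to 71.1% of the 10 genes' summed CPM per kb in the non-injured and 67.1% to 71.4% in the injured libraries. Comp held 21.9%, 20.1% and 22.3% in sham control 1, sham control 2 and the uninjured library, as against 10.1%, 11.2% and 14.2% in injured 1, 2 and 3. Periostin held 1.71%, 4.05% and 0.916% against 7.12%, 10.1% and 10.02%, so that on this scale neither gene overlapped between injured and non-injured libraries. Relative to the summed set, 6 of the 10 genes did not overlap between injured and all non-injured libraries: Tnc, Tnn, Thbs2 and Postn were higher (9.17% of all genes, measured on the same scale) and Tnxb and Comp lower (3.27% of all genes), together beside 12.4%. Against sham control alone the same 4 were higher (14.0% of all genes) and the same 2 lower (4.01% of all genes), together beside 18.0%. This scale was chosen after seeing the data, and shares of a sum are not independent of each other.

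**Figure D5:**
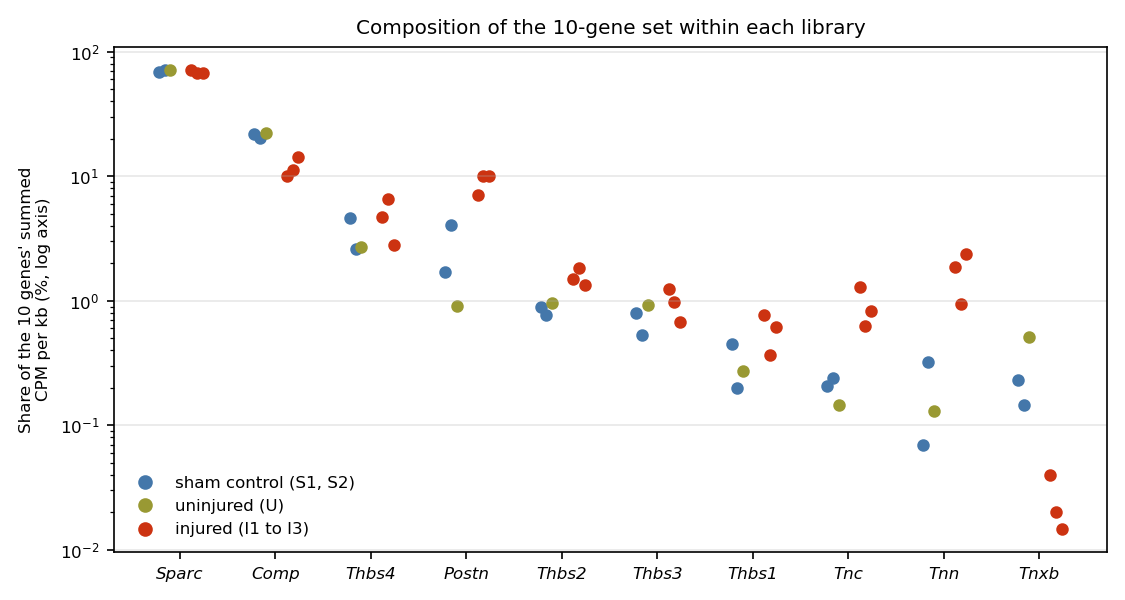
Share of the 10 genes' summed CPM per kb (%, log axis) held by each gene in each library; blue points are sham control, olive the uninjured library and red the injured libraries. Comp lies at 20.1% to 22.3% in non-injured and 10.1% to 14.2% in injured libraries, and Tnxb at 0.145% to 0.515% and 0.0146% to 0.0399%.

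Receptors, enzymes, matrix partners and regulators of these proteins were read from 5 fixed lists, and by edgeR 0 genes of any list passed over all genes in either comparison. Over all genes, 53.7% lay above 0 against sham control, and DESeq2 called 2.20% there and 2.45% against all non-injured libraries. Of 28 receptor genes, 10 had a log2 fold change above 0 and 18 below 0 against sham control, with a median of -0.36 beside 0.09 over all genes. DESeq2 called 0 of them. Calreticulin (Calr), a chaperone that also serves as a thrombospondin receptor at the cell surface, stood at 374, 367 and 377 CPM in the non-injured and 733, 538 and 773 CPM in the injured libraries (log2 fold change 0.88 ± 0.40, SE; edgeR unadjusted p = 0.0643). The groups did not overlap. The laminin receptor chains Itga7 and Itga3 stood highest in sham control 1, at 61.1 and 112 CPM, against 8.52 ± 2.53 and 6.04 ± 7.83 CPM in injured libraries (SD, n = 3). Itga9, a chain of a tenascin-C receptor, stood at 26.2, 5.61 and 42.5 CPM in the non-injured and 3.39, 3.93 and 8.84 CPM in the injured libraries, which overlapped.

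Of 23 tested enzymes and inhibitors, 10 were above 0 and 13 below 0 against sham control (median -0.04), and DESeq2 called 1 in each direction. The metalloprotease Adamts12, which cleaves Comp, was called higher, at 2.11, 3.18 and 11.4 CPM in the non-injured and 20.3, 28.7 and 21.7 CPM in the injured libraries (log2 fold change 3.16 ± 0.75, SE; edgeR unadjusted p = 0.00416, DESeq2 adjusted p = 8.65e-05). The crosslinking enzyme transglutaminase 2 (Tgm2) was called lower, at 603, 519 and 225 CPM against 186, 98.1 and 157 CPM (log2 fold change -1.93 ± 0.41, SE; edgeR unadjusted p = 0.00234, DESeq2 adjusted p = 0.000834). The lysyl oxidase Loxl2 stood at 307 ± 73.5 CPM in sham control (SD, n = 2) and 663 ± 155 in injured (SD, n = 3), and the protease inhibitor Timp3 at 760 ± 502 and 236 ± 124. For all 4 of these genes the injured libraries did not overlap the non-injured ones, but the genes were picked by small p, which favours this. In the whole list of 23 tested genes, 4 lay higher and 3 lower without overlap against all non-injured libraries. Over all genes the shares were 9.19% and 7.13%. With the uninjured library joined to sham control, DESeq2 called Loxl2 higher and Tgm2 and Timp3 lower, and Adamts12 did not pass (DESeq2 adjusted p = 0.210).

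Among other matricellular and related secreted proteins, 11 of 26 were above 0 and 15 below 0 (median -0.34), and DESeq2 called 1, the CCN protein Ccn3. Ccn3 stood at 147, 107 and 275 CPM in the non-injured and 59.5, 51.6 and 43.3 CPM in the injured libraries. Its log2 fold change was -1.30 ± 0.36 (SE; edgeR unadjusted p = 0.00895, DESeq2 adjusted p = 0.0429). Sparcl1, the closest relative of Sparc, stood at 408, 140.4 and 442 CPM against 64.9, 80.6 and 100.02 CPM, and the matrix glycoprotein Fbln1 at 195, 110 and 310.0 CPM against 93.4, 44.4 and 41.0 CPM. For these 3 genes, also picked by small p, all injured libraries were below all others. Of the 23 genes of this list tested against all non-injured libraries, 2 lay higher and 3 lower without overlap. Over all genes the shares were 9.19% and 7.13%. Osteopontin (Spp1) stood at 2932, 16801 and 7122 CPM against 794, 4340.2 and 2437 CPM, and its groups overlapped. Against all non-injured libraries DESeq2 called Ccn3, Sparcl1 and Fbln1 lower.

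Of 25 matrix molecules that bind the 10 proteins, 17 were above 0 and 8 below 0 (median 0.27), and DESeq2 called 1, the cartilage collagen chain Col9a1. Col9a1 stood at 5.08, 12.5 and 9.15 CPM in the non-injured and 257, 76.0 and 1030.3 CPM in the injured libraries (log2 fold change 5.69 ± 1.31, SE; edgeR unadjusted p = 0.0035). Matn3, a matrilin that binds Comp and Col9a1, had no count in sham control 1, stood at 27.0 and 7.84 CPM in sham control 2 and the uninjured library, and at 386, 135 and 1558 CPM in injured 1, 2 and 3. Fibrillin-1 (Fbn1) stood at 325, 320.1 and 303 CPM against 755, 555 and 542 CPM. Decorin (Dcn), a proteoglycan that coats collagen fibrils, stood at 8730, 21175 and 20475 CPM against 3522, 6324 and 4679.8 CPM, lower in every injured library and called by DESeq2 against all non-injured libraries (adjusted p = 0.00242). Among 23 regulators, 10 were above 0 and 13 below 0 (median -0.11) and DESeq2 called 0. The TGF-beta transducer Smad3 stood at 93.6, 84.8 and 106 CPM against 41.4, 51.4 and 49.5 CPM, and the tendon factor Scx at 8.92, 41.6 and 36.5 CPM against 57.5, 89.3 and 56.8 CPM. Egr1, which drives tendon matrix genes, stood at 1085, 3017 and 3501 CPM against 604, 714 and 1118 CPM, with injured 3 just above sham control 1. DESeq2 called Smad3 and Egr1 lower against all non-injured libraries. The AP-1 subunit gene Jun stood at 1314 ± 100.8 CPM in sham control (SD, n = 2) and 772 ± 169 in injured (SD, n = 3).

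The genes whose log2(CPM + 1) over the 6 libraries was most like that of Tnc, among 8920 genes with a mean of at least 10 CPM, were Trim7 (Pearson's r = 0.996), the collagen-modifying enzyme Plod3 (0.993) and the cargo receptor Surf4 (0.993). Plod3 stood at 51.7, 145 and 43.1 CPM in the non-injured and 342, 210 and 321 CPM in the injured libraries. Those most like Tnxb were the complement inhibitor Serping1 (r = 0.996), Zfp747 (0.991) and adrenomedullin (Adm, 0.989). Serping1 stood at 1333, 1594 and 2252 CPM against 622, 393 and 391 CPM. These are descriptions over 6 libraries that share groups and depth, picked from many genes.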

How the data were processed

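RNA from 6 libraries of sorted mSSCs was turned into cDNA from 150 pg of total RNA with a low-input amplification kit, per the labels' protocols, so scarce transcripts can drop out or be over-amplified. The table the authors deposited holds whole-number counts per gene symbol, taken here as unscaled. The authors worked with the quantifier Salmon (0.12.0) and with DESeq and DESeq2 (1.22.2), per the submitters' processing notes, which name the builds GRCm38.p6 and mm9 without a role. How transcript estimates became counts was not stated in any label or header. Of 26130 rows, 6714 had no count in any library.

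Genes were kept by filterByExpr (minimum count 10), scaled by TMM and tested with edgeR 4.0.16 under R 4.3.3 (quasi-likelihood F test, Benjamini-Hochberg adjustment over all genes tested, threshold 0.05), with 3 groups (3 residual degrees of freedom) or 2 groups (4). SEs were derived from the F statistic. Without molecular identifiers, amplified copies are counted as separate reads. DESeq2 1.42.0, limma-voom 3.58.1, other scalings, no filter, left-out libraries and a replicate block were alternatives. Transcript lengths came from GENCODE M21 and upstream sequences from RefSeq (GRCm38.p6). The members, lists and tests were chosen with earlier results of these data known. Named partner genes were at most 4 a list, ranked by p in the sham comparison among genes with a mean of at least 10 CPM; like genes were the 3 with the highest Pearson's r to the member with the smallest p in each direction. Of 267 list entries, 257 matched the table.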

Additional observations from a re-analysis of the deposited data

How the results depend on the processing

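No gene of the 10 passed by edgeR in either comparison under any alternative run with it, and precision is limited by 2 or 3 libraries a group. DESeq2 called 369 genes and 1 member against sham control and 345 genes and 3 members against all non-injured libraries, limma-voom 1 and 7 genes, and edgeR without a low-count filter 3 and 5. The number of members whose groups did not overlap was 3 in both comparisons. With 1 library left out it ran from 3 to 8 (8 without sham control 2; 5 without sham control 1 or injured 1) and from 3 to 6 (6 without sham control 2; 5 without injured 1). Without sham control 1 and injured 1 together it was 8 and 7, and relative to the summed set it was 6 and 6. Fewer libraries overlap less by construction. The log2 difference in the Tnc to Tnxb ratio ran from 4.98 to 6.26 with 1 library left out and was 5.68 with 5 counts added. Directions turned only for genes near 0: against sham control Thbs3 ran from -0.11 (without sham control 1) to 0.66 with 1 library left out and was -0.21 without sham control 1 and injured 1. Thbs4 ran from -0.15 (without sham control 1; -0.14 without injured 2) to 0.37 and was -0.0746 without that pair, and Sparc ran from -0.96 to 0.43 (without sham control 2). Against all non-injured libraries Thbs3 ran from -0.11 (without sham control 1) to 0.22 and was -0.21 without that pair, and Sparc ran from -0.62 to 0.10 (without sham control 2); the cause was not tested. With library size as the only scaling, the median of all genes moved from 0.09 to 0.23 against sham control, and Tnc, Tnn and Tnxb then stood at 1.70, 2.63 and -3.14. The replicate numbers are not stated to pair samples, so they were not taken to do so. Same-numbered sham control and injured libraries had deviations from their group means correlated at 0.353 and 0.0107 over 2 pairs. The deviations of the 2 sham control libraries mirror each other, so these values cannot decide on pairing. The replicate block on those 4 libraries called 0 genes and gave Tnc 1.53, Tnn 2.66 and Tnxb -3.18. In the same libraries without it these were 1.42, 1.86 and -3.14.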
